A study of Mus musculus with 6 samples.

Results

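The globin and early red cell genes of mouse skin were 14 of 8949 genes named on the array, and 15 of its 12422 probe sets measured them, a probe set being the group of short array probes that together give 1 value for a transcript. They were chosen by name, as every probe set whose gene symbols begin with Hba- or Hbb- or are Alas2, Slc4a1, Klf1 or Gata1. The GC13 array that is set apart below was singled out with its values already known, so its difference from the others is described and not tested. The arrays came from total RNA of whole skin taken 5 days after birth. Per the labels, the animals were FVB (3 samples), an albino inbred strain, or GC13 (3 samples), transgenic mice with overexpression of Hoxc13, a homeobox gene of the hair follicle. The sources used here give neither the promoter of the transgene, nor the strain background of the line, nor the sex of the mice. Nor do they tie each sample to a mouse of its own, so a p-value covers only the spread between arrays, part of which may be technical.

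Haemoglobin is built from alpha-like and beta-like globin chains, each with a haem group, and globin messenger RNA is made in erythroblasts and persists in reticulocytes, the young red cells that still hold RNA. Whole skin holds blood in its vessels, so its RNA includes transcripts of circulating red cells. In the mouse, Hba-x, Hbb-y and Hbb-bh1 serve the primitive red cells of the embryo, and Hba-a1, Hba-a2 and the adult beta genes serve definitive red cells. Hbb-b1 and Hbb-b2 are the adult beta genes of one haplotype of inbred mice, and Hbb-bs and Hbb-bt are those of another. Gata1 and Klf1 are transcription factors of the erythroid lineage that bind GATA motifs and CACCC boxes in globin genes. In bulk tissue, fewer red cells and less globin RNA per cell cannot be told apart.

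The upstream sequences of Hba-a1 and Alas2, whose probe sets were low together on 2 GC13 arrays, are shown with that of Hbb-bs and with those of the embryonic genes Hba-x and Hbb-y. Hba-x was dim and Hbb-y too dim to be tested, so no contrast with the adult genes is read from them. The brighter embryonic gene Hbb-bh1 was low on those arrays too, but its sequence was not at hand. Hbb-bs is 1 of the 4 adult beta genes behind a shared probe set that was also low, and its own level was not measured apart from theirs. Each holds the 220 bases before the RefSeq transcript start (GRCm38.p6), 5′ to 3′. Capitals mark matches on either strand to AGATAA and TGATAA, which hold the GATA core, to the CACCC-type motif CCNCNCCC and to CCAAT, and matches may overlap.
Hba-a1 (chr11:32283452-32283671, plus strand): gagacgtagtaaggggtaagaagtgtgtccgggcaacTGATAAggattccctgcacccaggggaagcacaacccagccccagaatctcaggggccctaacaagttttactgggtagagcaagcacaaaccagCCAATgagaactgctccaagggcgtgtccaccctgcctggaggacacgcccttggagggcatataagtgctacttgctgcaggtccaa
Hbb-bs (chr7:103827929-103828148, minus strand): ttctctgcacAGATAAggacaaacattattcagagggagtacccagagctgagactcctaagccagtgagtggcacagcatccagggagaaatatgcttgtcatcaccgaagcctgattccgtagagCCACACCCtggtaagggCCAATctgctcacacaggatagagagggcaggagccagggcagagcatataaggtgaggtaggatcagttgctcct
Alas2 (chrX:150547197-150547416, plus strand): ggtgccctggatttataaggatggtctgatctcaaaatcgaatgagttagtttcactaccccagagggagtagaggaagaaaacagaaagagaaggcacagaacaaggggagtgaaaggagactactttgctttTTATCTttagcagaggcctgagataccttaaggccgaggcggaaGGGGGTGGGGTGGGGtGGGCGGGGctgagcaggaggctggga
Hba-x (chr11:32276380-32276599, plus strand): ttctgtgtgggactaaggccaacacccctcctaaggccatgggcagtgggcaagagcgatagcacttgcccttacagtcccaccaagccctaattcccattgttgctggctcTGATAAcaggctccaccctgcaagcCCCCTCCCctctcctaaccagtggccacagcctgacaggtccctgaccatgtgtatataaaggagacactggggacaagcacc
Hbb-y (chr7:103853208-103853427, minus strand): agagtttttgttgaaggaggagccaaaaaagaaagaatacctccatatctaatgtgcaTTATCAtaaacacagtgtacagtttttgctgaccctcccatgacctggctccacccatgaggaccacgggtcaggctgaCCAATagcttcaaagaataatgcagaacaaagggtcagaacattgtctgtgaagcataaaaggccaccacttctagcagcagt
RefSeq sequences were at hand for 9 of the 14 genes, not for Hba-ps3, Hbb-b1, Hbb-b2, Hbb-bh1 and Slc4a1. Within 250 bases upstream, TGATAA was present in 5 of the 9 and in 7.94% of all 32851 promoters, and AGATAA in 2 of the 9 against 9.99%. CCNCNCCC was present in 5 of the 9 against 45.9%, and CCAAT in 6 of the 9 against 33.8%. Hba-a1 and Hba-a2 had the same upstream sequence where the windows overlap, and with them taken as 1 the counts are 4 of 8 for TGATAA, 2 of 8 for AGATAA, 5 of 8 for CCNCNCCC and 5 of 8 for CCAAT. The matches differed among the genes shown: Hba-a1 had TGATAA and CCAAT, Hbb-bs had AGATAA, CCNCNCCC and CCAAT, and Alas2 had AGATAA and 4 partly overlapping matches to CCNCNCCC on the minus strand. Hba-x and Hbb-y also held TGATAA. A match describes the letters and is not evidence of binding.

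Array totals ran from 1626361 to 1736141 in deposited intensity units, and with 3 arrays per group their number limits the precision. Hoxc13 itself had no named probe set, so the overexpressed gene was not analysed here. GC13 replicate 2 stood apart from its group in measures that do not use the globins. The ratio of 3′ to 5′ signal of the Gapdh controls, a measure that goes up when transcripts lose their 5′ ends, was 9.58 on that array, 2.22 and 2.19 on the other GC13 arrays and 0.894 to 0.958 on the FVB arrays. The same ratio of the beta-actin controls was 3.80 on GC13 replicate 2. It was 1.26 and 1.43 on the other GC13 arrays and 1.16 to 1.36 on the FVB arrays. The median intensity was 29.0 on GC13 replicate 2 and 34.2 to 37.4 elsewhere. Of the keratinocyte markers 8 of 12 were tested, and their summed intensity was 7519 to 7719 in FVB against 8081 to 11900 in GC13. The probe sets of Krt5, Krt14 and Krt15, defining keratins of basal keratinocytes, gave at most 14.2 on any array and fell below the filter.

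Adult alpha globin was high on GC13 replicate 2 and low on the other GC13 arrays. Hba-a1 had intensities of 1747, 1699 and 1699 on FVB replicates 1 to 3, and of 1097, 2219 and 919.8 on GC13 replicates 1 to 3. The FVB arrays lay within a coefficient of variation of 1.62% of each other, GC13 replicates 1 and 3 were below all of them and GC13 replicate 2 was above all of them. The probe set shared by Hba-a1 and Hba-a2, a pair of genes that encode the adult alpha chain, had 328, 297 and 403 in FVB against 142, 529 and 243 in GC13. Its order was the same, with GC13 replicate 2 the highest of the 6 arrays and replicates 1 and 3 the lowest.

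Adult beta globin followed the same order within GC13. The probe set that covers Hbb-b1, Hbb-b2, Hbb-bs and Hbb-bt had 1848, 1736 and 1595 in FVB against 655, 1816 and 611 in GC13. Here GC13 replicate 2 lay within the range of the FVB arrays, and replicates 1 and 3 were below it. The probe set of Hbb-b2, the minor adult beta gene of its haplotype, had 629, 682 and 640.1 in FVB against 127, 610.3 and 109 in GC13. It showed the widest gap of the 12 tested members: the mean of FVB was 5.52 times that of GC13 replicates 1 and 3, against 2.73 times for the shared beta probe set, 1.70 times for Hba-a1 and 1.78 times for the shared alpha probe set. The difference between these gaps was not tested. A further probe set listed for the same 4 beta genes had 0.273 to 1.90 on all arrays, near the bottom of the array, and was too dim to compare.

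**Figure D1:**
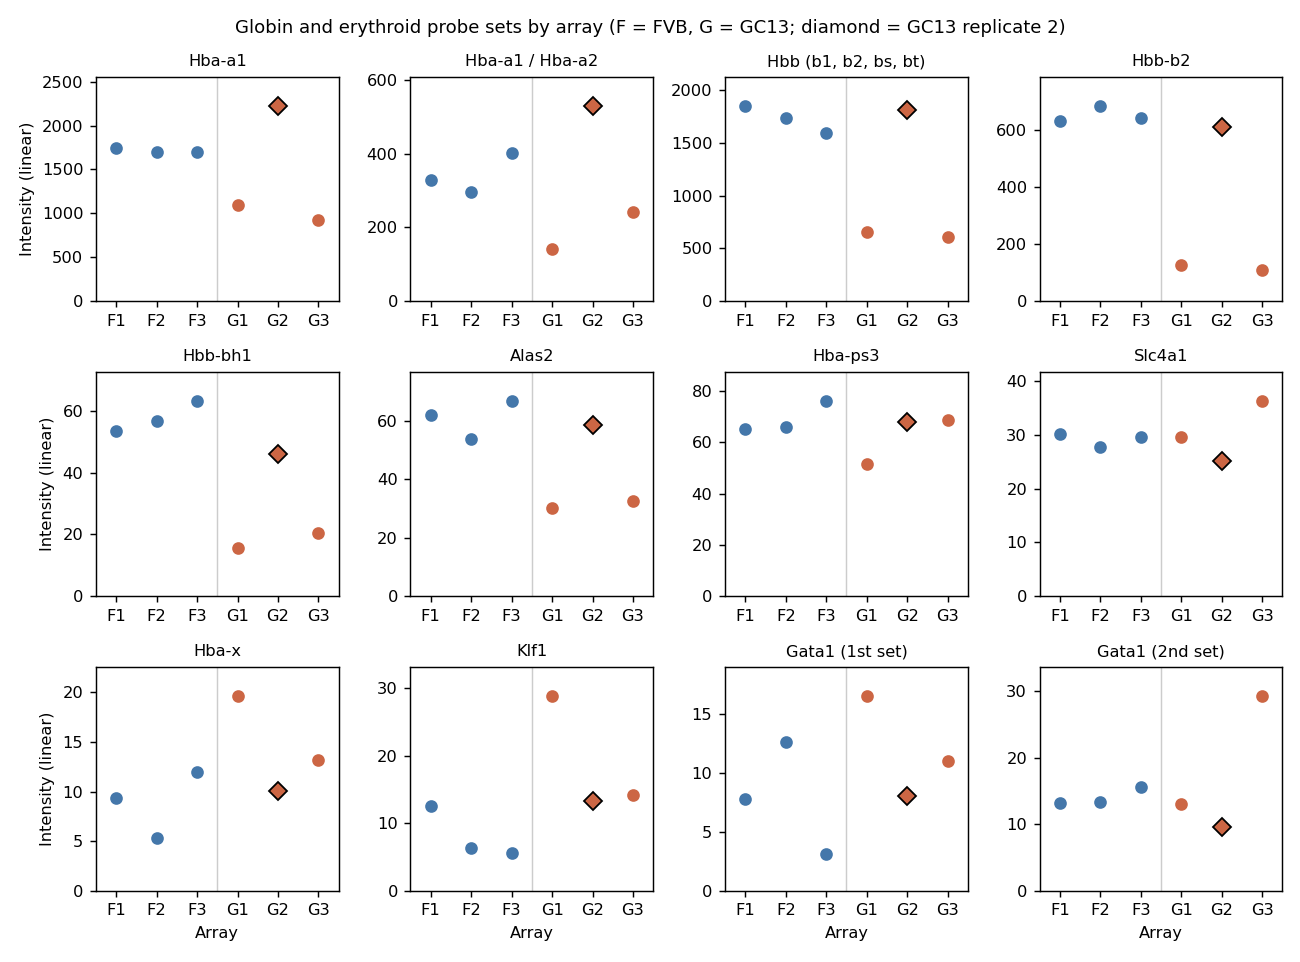
Deposited intensity (linear axis from 0) of the 12 tested probe sets on each array, FVB replicates 1 to 3 (F1 to F3, blue) and GC13 replicates 1 to 3 (G1 to G3, orange), with a diamond for GC13 replicate 2. In the first 6 panels GC13 replicates 1 and 3 lie below the other 4 arrays, and in the last 6 they do not.

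Alas2 and the embryonic beta gene Hbb-bh1 shared the pattern at lower signal. Alas2 encodes the erythroid form of aminolevulinate synthase, the first enzyme of haem synthesis. It had 61.9, 53.8 and 66.8 in FVB against 30.3, 58.5 and 32.7 in GC13, so GC13 replicate 2 was within the range of FVB and the other GC13 arrays were below it. Hbb-bh1 had 53.6, 56.8 and 63.3 in FVB against 15.5, 46.0 and 20.5 in GC13, where all GC13 arrays were below all FVB arrays and replicate 2 was the nearest to them. Beta-like globins are close in sequence, and the probe sequences were not used here, so signal from adult beta transcripts at the Hbb-bh1 probe set cannot be told apart from its own.

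GC13 replicates 1 and 3 were thus both below the other 4 arrays in 6 of the 12 tested members, against 17.4% of all tested probe sets, and both above them in 2, Klf1 and Hba-x, against 22.9%. After each array was centred on its median, Hba-ps3 joined the former, which made 7 of 12 against 19.4%. The globin probe sets among these are not all separate measurements. Both alpha probe sets list Hba-a1, and the shared beta probe set also lists Hbb-b2. The other tested members did not follow the globin order on either scale. As deposited, Hba-ps3, an alpha globin pseudogene, had 65.2, 66.0 and 76.1 in FVB against 51.4, 68.1 and 68.7 in GC13, and the groups overlapped. Slc4a1, which encodes the band 3 anion exchanger of the red cell membrane, had 30.2, 27.7 and 29.6 in FVB against 29.7, 25.1 and 36.3 in GC13. For this gene GC13 replicate 2 was the lowest array and replicate 3 the highest. The embryonic alpha gene Hba-x was dim, with 9.34, 5.32 and 11.9 in FVB against 19.6, 10.03 and 13.2 in GC13.

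The erythroid transcription factors were dim throughout. Klf1 had 12.5, 6.41 and 5.67 in FVB against 28.9, 13.3 and 14.2 in GC13, and the groups did not overlap, with GC13 the higher. One Gata1 probe set had 7.80, 12.6 and 3.10 in FVB against 16.5, 8.003 and 11.02 in GC13. The other had 13.2, 13.3 and 15.6 in FVB against 13.1, 9.61 and 29.3 in GC13, and both overlapped between the groups. The 2 probe sets of Hbb-y, the embryonic epsilon-type gene, reached at most 14.3 and 8.89 and fell below the filter on low values. The brighter of them missed it narrowly, with a mean of 3.02 on the centred log2 scale against the limit of 3.04, while the dimmest member kept, the first Gata1 probe set, had 3.46.

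Over all 6 arrays the comparison of GC13 with FVB called no member. Besides added Hoxc13, the groups differed in the Gapdh ratio, 2.19 to 9.58 on the GC13 arrays against 0.894 to 0.958 in FVB. The beta-actin ratio overlapped between the groups, at 1.26 to 3.80 on the GC13 arrays against 1.16 to 1.36 in FVB. The groups may also differ in sex and strain background, and the part of Hoxc13 apart from these was not tested. Of the 12 tested probe sets 0 passed a limma adjusted p of 0.05, where 0.472% of all 9316 tested probe sets passed, 0.386% as lower and 0.0859% as higher. At an unadjusted p under 0.05 there were 3 of 12, Klf1, Hbb-bh1 and Hbb-b2, against 15.5% of all. The median log2 difference (GC13 minus FVB) was -0.18 over the 12 and 0.08 over all 9316, and 7 of the 12 were below 0. Hbb-b2 had the largest difference, -1.59 (SE 0.66, limma adjusted p = 0.304), from an intensity of 651 ± 27.9 (SD, n = 3) in FVB to 282 ± 284 (SD, n = 3) in GC13. Its SD in GC13 was as large as its mean there. Hbb-bh1 had -1.09 (SE 0.42, limma adjusted p = 0.278) and the shared beta probe set -0.86 (SE 0.47, limma adjusted p = 0.421). Hba-a1 and the shared alpha probe set had -0.32 (SE 0.39) and -0.29 (SE 0.49), and Alas2 had -0.55 (SE 0.33). Klf1 lay on the other side at 1.09 (SE 0.36, limma adjusted p = 0.226). On the deposited scale, groups that did not overlap were seen for Hbb-bh1 and Hbb-b2 with GC13 lower, as for 12.3% of all tested probe sets, and for Klf1 with GC13 higher, as for 10.6%. After centring, Hbb-bh1 and Hbb-b2 overlapped between the groups, so 0 of 12 stood apart with GC13 lower against 9.91% of all, and Klf1 and Hba-x did with GC13 higher against 14.6%.

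The count of calls among the members rested on GC13 replicate 2. Without it 5 of 12 were past the threshold, and all 5 fell in GC13: the shared beta probe set, Hbb-b2, Hbb-bh1, Alas2 and Hba-a1. In that fit 14.8% of all probe sets passed, with 8.8% of all probe sets lower and 6% higher, and the array left out had been chosen with these values known, so nothing is read from the count. The log2 differences became -2.47 (SE 0.16) for Hbb-b2, -1.61 (SE 0.16) for Hbb-bh1, -1.47 (SE 0.16) for the shared beta probe set, -0.93 (SE 0.16) for Alas2 and -0.79 (SE 0.17) for Hba-a1. Slc4a1 and Klf1 moved little, to 0.14 (SE 0.15) and 1.17 (SE 0.41). Leaving out any other array left 0 of 12 past the threshold.

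**Figure D2:**
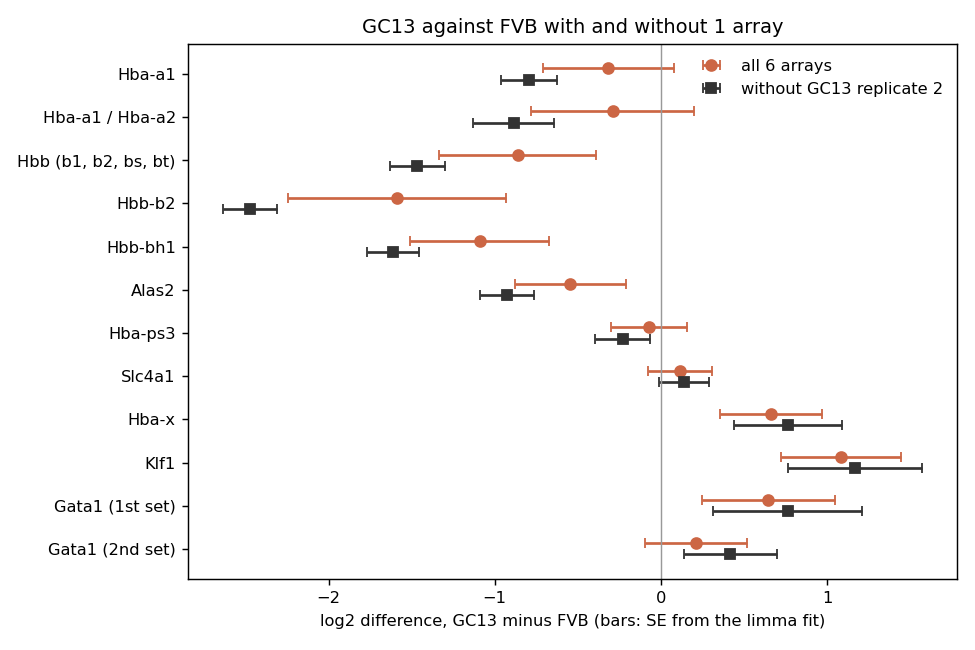
The log2 difference of GC13 minus FVB (horizontal axis) with its SE from the limma fit, for each of the 12 tested probe sets, over all 6 arrays (orange circles) and without GC13 replicate 2 (black squares). The globins from Hba-a1 to Hbb-bh1 and Alas2 move left without that array, Hbb-b2 from -1.59 to -2.47, while Slc4a1 goes from 0.11 to 0.14.

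Set beside the other GC13 arrays, GC13 replicate 2 was high in every tested adult globin probe set. It was over 2-fold above both of them in 5 of 12 members (the 4 adult globin probe sets and Hbb-bh1), as it was for 4.81% of all tested probe sets on the deposited scale. It was over 2-fold below both in 0 of 12, as for 12.1% of all. In intensity it was 5.18 times the mean of GC13 replicates 1 and 3 for Hbb-b2, 2.87 times for the shared beta, 2.75 times for the shared alpha probe set, 2.20 times for Hba-a1, 2.55 times for Hbb-bh1 and 1.86 times for Alas2. On the centred log2 scale the median of this difference was 0.81 over the 12 members and 0.10 over all 9316 probe sets.

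**Figure D3:**
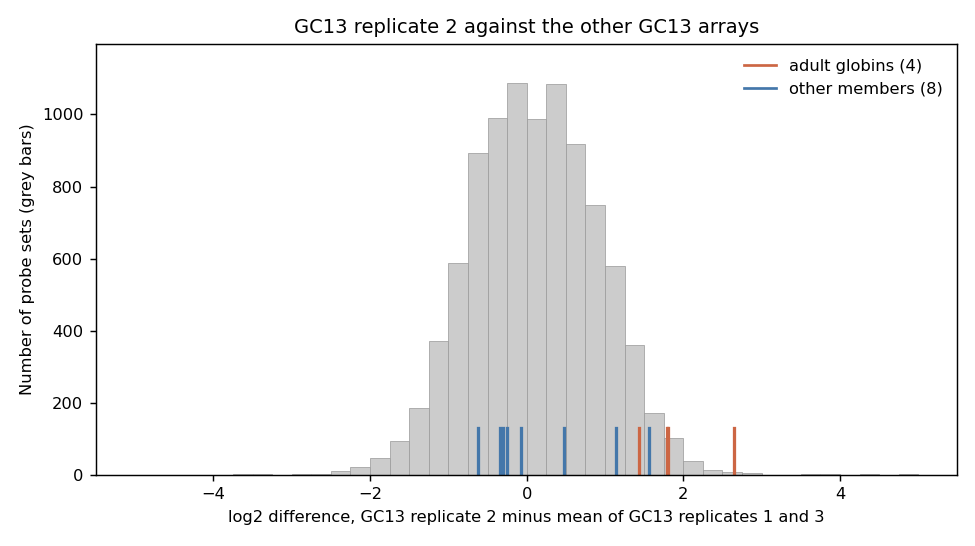
Number of probe sets (grey bars, of 9316) by the centred log2 difference between GC13 replicate 2 and the mean of GC13 replicates 1 and 3, with the 4 adult globin probe sets as orange lines and the 8 other tested members as blue lines. The adult globins lie between 1.43 and 2.65, to the right of most of the bars, and Alas2 and Hbb-bh1 at 1.14 and 1.56.

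Whether GC13 replicate 2 was above FVB or level with it depended on the scaling. As deposited, it was above the other 5 arrays in 2 of 12 members, both alpha globin probe sets, against 24.9% of all tested probe sets. It lay within the range of the FVB arrays in 5 of 12 (the shared beta probe set, Alas2, Hba-ps3, Hba-x and the first Gata1 probe set), as in 22.5% of all, and below the other 5 arrays in 2 of 12 (Slc4a1 and the second Gata1 probe set), as in 33.8% of all. After each array was centred on its median, it was above them in 6 of 12 (the 4 adult globin probe sets, Hba-ps3 and Alas2), against 38.5% of all. The mean centred log2 level of the 4 adult globin probe sets was 9.83, 9.73 and 9.78 on the FVB arrays, 8.41 and 8.34 on GC13 replicates 1 and 3 and 10.29 on GC13 replicate 2. That array was thus 1.92 above the other GC13 arrays, 0.51 above FVB and 1.08 above the mean of the other 5. With no centring the same differences were 1.63, 0.25 and 0.80.

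The 2 GC13 arrays with low globins were also those with low signal of Y-linked genes. On GC13 replicates 1 to 3 Eif2s3y had 3.25, 143 and 4.60 against 69.4 to 98.9 in FVB. Uty had 4.87, 34.7 and 7.19 against 13.3 to 15.2. Xist, the RNA of the inactive X chromosome, was lowest on GC13 replicate 2 at 1.07 and had 9.15 to 12.6 on the other arrays, and the fourth measured gene, Kdm5d, had at most 3.09. The array with the most globin was thus the one with the most Eif2s3y and with the Gapdh ratio of 9.58. The part of sex and of RNA quality in the globin difference was not tested.

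**Figure D4:**
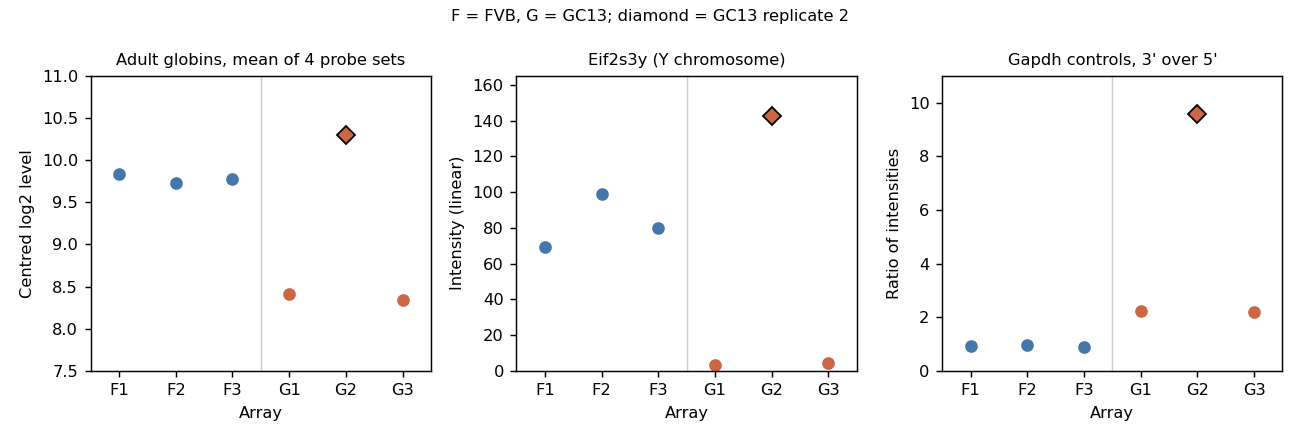
Left, mean centred log2 level of the 4 adult globin probe sets on each array; middle, intensity of Eif2s3y on a linear axis; right, ratio of the 3′ to the 5′ Gapdh control intensity. FVB arrays are blue, GC13 arrays orange, and the diamond, GC13 replicate 2, is the highest point in all 3 panels.

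Few other genes of the red cell lineage had the order of the globins. Of 68 genes in 4 lists, covering the membrane and its skeleton, haem synthesis and iron, erythroid regulators and other red cell enzymes, 41 were tested and 0 passed over all 6 arrays by limma, against 0.472% of all probe sets, while 6 of the 41 had an unadjusted p under 0.05, against 15.5% of all. Without GC13 replicate 2 there were 2 lower, or 4.88% of the 41, against 8.8% of all probe sets, and 0 higher against 6%. GC13 replicates 1 and 3 were both below the other 4 arrays in 4 of the 41, as in 17.4% of all probe sets, and both above them in 12, as in 22.9%. The list of other red cell genes held 3 of the 4 that were below. Many genes of these lists are also expressed in skin cells, and several with roles mainly in red cells were dim. The membrane protein gene Epb42, the carbonic anhydrase gene Car1, the regulators Tal1 and Gfi1b and the erythroid nuclear protein gene Hemgn had at most 4.03, 3.71, 5.46, 11.4 and 7.20 on any array and fell below the filter.

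The list of other red cell genes held the pair that was lower without GC13 replicate 2. Bpgm, whose enzyme makes the bisphosphoglycerate that lowers the oxygen affinity of haemoglobin, had 192, 235 and 219 in FVB against 142, 267 and 101 in GC13. It had the same order as the globins, and its log2 difference was -0.38 (limma adjusted p = 0.699) over all 6 arrays. Mgst3, a microsomal glutathione transferase gene, had 940, 919 and 924 in FVB against 557, 451 and 472 in GC13, so it was low on all GC13 arrays, replicate 2 included (limma adjusted p = 0.131). Hebp1, a haem-binding protein gene, had 80.6, 69.8 and 74.4 in FVB against 59.7, 59.9 and 64.1 in GC13. In this list GC13 replicates 1 and 3 were both below the other 4 arrays in 3 of 10 genes, Bpgm, Car2 and Prdx2, against 17.4% of all probe sets. Both were above in 2 of 10, against 22.9%. Car2 had 110.3, 107 and 102 in FVB against 74.9, 137 and 70.8 in GC13. Prdx2 had 1671, 1633 and 1618 in FVB against 1421, 1426 and 1286 in GC13, but a second, dimmer Prdx2 probe set had GC13 replicates 1 and 3 above the other 4 arrays. The median log2 difference over the 10 tested genes was -0.07, with 5 below 0.

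None of the 12 tested haem synthesis and iron genes had the order of Alas2. That order, with GC13 replicates 1 and 3 both below the other 4 arrays, was seen in 17.4% of all tested probe sets. Alas1, the form of the enzyme used outside red cells, had 231, 215 and 225 in FVB against 390.1, 285 and 313 in GC13, a log2 difference of 0.61 (limma adjusted p = 0.227) in the opposite direction from Alas2. Alad, the next enzyme of the pathway, had 429.9, 446 and 434 in FVB against 421, 279 and 406 in GC13, lowest on replicate 2. Slc11a2, an iron transporter gene, had 107, 106 and 110.2 in FVB against 157, 131 and 163 in GC13, and Hmox1, the haem oxygenase gene, had 658, 629.6 and 730.2 in FVB against 488, 366 and 660.1 in GC13. Ppox, a late haem synthesis enzyme gene, was lowest on GC13 replicate 2 at 16.6. That array was below the other 5 arrays in 6 of the 12 genes, against 33.8% of all tested probe sets. The list of 12 had a median of -0.02.

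Among the erythroid regulators Cbfa2t3, a corepressor gene, had 4.89, 13.8 and 10.96 in FVB against 19.6, 14.4 and 26.5 in GC13 (limma adjusted p = 0.203), and Lmo2, an adaptor of GATA factor complexes, had 60.0, 69.6 and 60.9 in FVB against 96.7, 92.8 and 79.4 in GC13 (limma adjusted p = 0.295). A second, dimmer Lmo2 probe set did not have GC13 higher throughout. It was lowest on GC13 replicate 2 and highest on GC13 replicates 1 and 3. Ldb1, a partner of Lmo2, was lowest on GC13 replicate 2, with 25.4 there, 95.6 and 87.2 on the other GC13 arrays and 117 to 128 in FVB. The 13 tested regulators had a median of 0.36, with 10 above 0. In the membrane and skeleton list of 6, Ank1 had 66.9, 95.7 and 94.1 in FVB against 82.5, 99.2 and 177 in GC13, while the water channel gene Aqp1 had 128, 134 and 131 in FVB against 116, 43.7 and 134 in GC13.

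Markers of other blood cells and of vessels had none past the threshold over all 6 arrays. The 3 tested platelet genes had summed intensities of 87.0 to 126 in FVB against 79.0 to 150.4 in GC13, and Pf4, Itgb3 and Gp5 were below the filter. The 9 tested neutrophil and myeloid genes had sums of 281 to 348 in FVB against 278 to 390.2 in GC13. Their median log2 difference was 0.44, with 7 of the 9 above 0. GC13 replicates 1 and 3 were both below the other 4 arrays in 2 of the 9, against 17.4% of all tested probe sets. Both were above them in 4, against 22.9% of all. The 2 below were the calgranulin genes S100a8, with 162, 139 and 155 in FVB against 46.1, 146 and 51.1 in GC13, and S100a9, with 14.0, 20.1 and 13.6 against 6.99, 15.8 and 10.6, both named after their values were seen. The granulocyte receptor gene Csf3r was among the 4, with 38.1, 48.4 and 67.0 in FVB against 106, 48.3 and 132 in GC13. The 6 tested lymphocyte genes summed to 131 to 174 in FVB against 125 to 233 in GC13. The 13 endothelial genes summed to 951 to 1114 in FVB and to 1534, 1183 and 1456 on GC13 replicates 1 to 3. The genes differed in direction, with 10 of the 13 above 0, 3 below and a median log2 difference of 0.40. Eng, an endothelial TGF-beta co-receptor gene, had 192, 193 and 212 in FVB against 619, 248 and 369 in GC13. Cldn5, a tight junction gene and 1 of the 3 below 0, had 127, 140.1 and 135 in FVB against 101, 61.9 and 83.6 in GC13. The part of vessel content in the globin difference was not tested.

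The 10 genes most like the adult globins across the 6 arrays were sought with the members left out. None was from the 4 red cell lists, but these held only 41 tested genes, so nothing is read from that. Likeness was the Pearson correlation with the mean of the 4 adult globin probe sets over 6 arrays, among 4378 probe sets of 1 named gene whose log2 range was at least 0.975, against 1.95 for the globin mean, and 12.2% of these reached 0.9. Gt(ROSA)26Sor, the transcript of the ROSA26 locus, came first (r = 0.999), with 55.6, 48.5 and 54.0 in FVB against 5.29, 84.7 and 6.37 in GC13. Rhpn2, a rhophilin gene, had 71.6, 67.8 and 63.8 in FVB against 21.7, 77.3 and 21.7 in GC13, and Rgs2, a regulator of G protein signalling, had 115, 121 and 99.2 in FVB against 25.04, 167 and 26.7 in GC13. Lyz2, the lysozyme gene of macrophages and neutrophils, had 42.7, 45.0 and 42.6 in FVB against 20.9, 49.3 and 19.9 in GC13. Smad7, Cebpg, Tspan6, P2rx4, Atp6v1c1 and Pgm2 made up the 10, with r from 0.993 to 0.995. Among the members r was 0.983 for Alas2, 0.954 for Hbb-bh1 and 0.795 for Hba-ps3, and -0.52 for Slc4a1 and -0.48 for Klf1. All genes share the RNA and scaling of each array, and no p is given.

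The nearest measured genes on each side of the globin genes were read as well, 6 for Hba-a1 and 6 for Hbb-bs. By start position they lay 57.2 to 924.2 kb from Hba-a1 and 1268.6 to 1727.8 kb from Hbb-bs. No measured gene was thus close to the beta genes, and these values do not describe their immediate surroundings. GC13 replicates 1 and 3 were both below the other 4 arrays in 1 of 6 at each place, against 17.4% of all tested probe sets. These were Mpg near the alpha genes and Cavin3 on the chromosome of the beta genes. Both arrays were above the other 4 in 2 of 6 at each place, against 22.9% of all. Cavin3, a caveolar protein gene, had 367, 337 and 319 in FVB against 282, 552 and 312 in GC13. Snrnp25, a splicing factor gene on one side, had 208, 216 and 214 in FVB against 227, 233 and 179 in GC13, and the kinase gene Stk10 on the other had 59.7, 63.0 and 63.9 in FVB against 90.6, 82.2 and 104 in GC13. Mpg, a DNA glycosylase gene, had 52.4, 50.2 and 48.5 in FVB against 40.6, 52.1 and 35.6 in GC13, with GC13 replicates 1 and 3 the lowest. Over all 6 arrays 0 of these 12 genes passed by limma, against 0.472% of all tested probe sets. There were 2 at an unadjusted limma p under 0.05, against 15.5% of all. The lowest limma adjusted p was 0.187, that of Stk10.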

How the data were processed

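The data were 6 single-sample Affymetrix-type arrays. The authors deposited 1 linear intensity per probe set and array (12488, with 66 control probe sets that served for the Gapdh and beta-actin ratios and entered no test). No source used here names their software, background correction or detection calls. Trimmed by 2% at each end, the mean of each array was 100, so 1 scale factor per array had been applied, and an overall change in RNA cannot be seen.

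Intensities were set on log2(intensity + 2), where 2 is the rounded 10th percentile. Array medians then differed by up to 0.345, above a limit of 0.2, and the medians were therefore set equal. A filter removed the dimmest 25% of probe sets by mean level and kept 9316, 12 of the 15 members among them. A fold on this scale understates the change of dim probe sets. Differences are GC13 minus FVB from limma 3.58.1 (R 4.3.3; lmFit, eBayes). Two-sided p-values were adjusted over all 9316 by the Benjamini-Hochberg method and judged at 0.05. The script was tested on simulated arrays. A list gene stood by its brightest tested probe set, and a second probe set is given only for Prdx2 and Lmo2.

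Symbols came from the platform annotation, updated by Entrez identifier through the RefSeq table of GRCm38.p6. Of 12422 probe sets, 10833 listed 1 gene, 396 several and 1193 none. The 2 beta and 1 alpha probe sets that list several globins were kept, as all their genes are members, and their signal cannot be assigned to 1 of these near-identical genes.

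The members and lists were chosen with earlier results of these data known. All members are given. From each list the text drew on the 4 tested genes with the smallest p, and genes most like the globins were the 10 with the highest correlation. Alad, Car2, Prdx2, S100a8, S100a9, the list genes below the filter and the named neighbours of the globins were named after their values were seen. Other pseudocounts, filters, scalings, a variance trend, array weights, the replicate number as a block and leaving out each array were tried.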

Additional observations from a re-analysis of the deposited data

How the results depend on the processing

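Over all probe sets, 44 of 9316 were called by limma. The count was 83 with a pseudocount of 16, 119 with 32, 23 with the lowest 50% left out, 28 with no centring and 3850 with array weights, which let the fit give each array a weight of its own. It ran from 0 to 1379 when 1 array was left out. It was 0 without any 1 of the FVB arrays, where 768 to 946 had an unadjusted p under 0.05, 9 and 11 without GC13 replicate 1 or 3 and 1379 without GC13 replicate 2.

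The count of members past the threshold was 0 under 13 of 15 alternatives, 8 with array weights, and from 0 to 5 when 1 array was left out, 5 without GC13 replicate 2. The cause was not tested. Of the 12 tested members 8 kept their direction under all alternatives in which they were tested. The other 4 reversed once each: Hba-a1 to 0.014 without GC13 replicate 3, the shared alpha probe set to 0.17 without GC13 replicate 1, Hba-ps3 to 0.082 without GC13 replicate 1 and the second Gata1 probe set to -0.12 without GC13 replicate 3. Leaving out 1 array gave ranges of -0.79 to 0.014, -0.89 to 0.17, -0.23 to 0.082 and -0.12 to 0.42 for these 4. Over all alternatives the log2 difference of Hbb-b2 ran from -2.47 to -1.07 and that of the shared beta probe set from -1.47 to -0.51. The adult globin difference between GC13 replicate 2 and the other 5 arrays, 1.08, stayed between 0.77 and 1.23 under 13 alternatives.

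The labels give both groups replicate numbers 1 to 3. Arrays of the same number had correlations of their deviations of -0.07, 0.18 and 0.36. GC13 replicate 3 correlated best with FVB replicate 3, but so did GC13 replicate 1, at 0.13, and GC13 replicate 2 did so with FVB replicate 1, at 0.23. With 3 arrays per group these values cannot settle whether the numbers pair the arrays, and the main fit did not pair them. With the replicate block 78 probe sets and 0 members were called. Dim members (Klf1, Gata1, Hba-x and Hbb-y) have an unknown signal over background.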
